A study of Mus musculus with 32 samples.

Results

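A set of 40 genes that carry out DNA replication and mitosis was described in sorted brain macrophages and microglia from mice with and without glioma. The members were chosen by symbol from a named list, and 39 of the 40 had a row among the 17586 genes of the deposited table. Cdc45 was not analysed here. The replication class held 16 measured members: Mcm2, Mcm3, Mcm4, Mcm5, Mcm6, Mcm7, Mcm10, Pcna, Cdc6, Cdt1, Ccne1, Ccne2, Rrm1, Rrm2, Tk1 and Tyms. The mitosis class held 23 measured members, from the proliferation marker Mki67 to the spindle protein Tpx2.

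A dividing cell prepares its chromosomes for copying when Cdc6 and Cdt1 load the ring of Mcm proteins, the replicative helicase, onto origins. E-type cyclins start the copying, Pcna clamps the polymerases to the template, and Rrm1, Rrm2, Tyms and Tk1 supply the nucleotides. The mitosis genes are read later in the cycle, and their products condense, attach and separate the chromosomes. Microglia are resident brain macrophages that renew slowly in the healthy adult brain, whereas monocyte-derived macrophages enter a glioma from the blood.

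The 4 populations, with 8 libraries each, were 2 kinds of tumour macrophages, labelled differentiated and undifferentiated, as well as tumour microglia and normal microglia. Libraries are numbered 1 to 32 over the whole series: 4, 7, 12, 15, 20, 23, 28 and 31 were tumour differentiated macrophages, 5, 8, 13, 16, 21, 24, 29 and 32 tumour undifferentiated macrophages, 3, 6, 11, 14, 19, 22, 27 and 30 tumour microglia, and 1, 2, 9, 10, 17, 18, 25 and 26 normal microglia. The 3 tumour populations came from the brains of chimeric mice implanted with GL-261, a glioma cell line of C57BL/6 mouse origin, and their labels read PEP-3 into WT or WT into PEP-3. Normal microglia came from brains of mice without a tumour and without a graft. In every population 4 libraries had a C57BL/6J recipient, called WT here, and 4 a Pep3/CD45.1 recipient, for normal microglia the strain of the mouse itself. No age, sorting gate, pooling of animals or interval after implantation was found in the labels. The labels also number 4 experiments. Normal microglia were experiments 1 and 2 and the tumour populations experiments 3 and 4, so that tumour, grafting and experiment cannot be told apart in any comparison with normal microglia. Within WT recipients tumour macrophages were experiment 3 and tumour microglia experiment 4, and within Pep3 recipients the reverse, so that population and experiment cannot be told apart there either unless the recipients are averaged. Whether each library is a separate animal is not stated, and the p-values therefore measure the spread between these libraries.

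The deposited values were signed scores between -6.50 and 6.92 in which every gene had a mean of 0. A score has no stated unit and no zero level, so levels of different genes cannot be compared and no fold changes can be given. Differences below are fitted differences on the deposited scale, with their standard error (SE), and a gene is called at a limma adjusted p below 0.05 over all 17586 genes. Sequencing depth is unknown. The table carried no variation in 11 sample directions, which were entered in the fit. Of the 32 libraries, 9 kept under 50% of their own variation, namely 1, 8, 10, 18, 26, 27, 28, 29 and 31. Libraries 1, 10, 18 and 26 were normal microglia and kept 33.1%, 8.6%, 23.9% and 22.8%. They serve in every comparison with that population. Ranges, separations and SDs therefore rest partly on libraries whose scores are not free of the others. Without these 9 libraries no member was called in any of the 6 comparisons with terms for the removed directions, a limma fit with 6 residual degrees of freedom in which 1 to 17 members per comparison had an unadjusted p below 0.05. Without the libraries and without the terms, 9 members were called in tumour differentiated macrophages against normal microglia, 3 in tumour undifferentiated macrophages against normal microglia, 2 and 3 in the same populations against tumour microglia, and 0 in tumour against normal microglia, where 21 had an unadjusted p below 0.05. The share of all genes called or at an unadjusted p below 0.05 is not given for either fit without these libraries. These counts therefore cannot show an excess among the members. In bulk RNA, a change in the number of dividing cells and a change in RNA per dividing cell cannot be told apart.

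The labelled populations were checked against their markers. The mean score over 8 microglial genes, among them P2ry12, Tmem119 and Fcrls, lay between -2.27 and -0.54 in tumour differentiated macrophages, between -2.27 and -0.90 in tumour undifferentiated macrophages, between 0.70 and 1.49 in tumour microglia and between 1.33 and 2.46 in normal microglia. The mean over 8 monocyte and macrophage genes, among them Ccr2, Ly6c2 and F10, ranged from 0.07 to 2.40, from 0.95 to 3.20, from -1.77 to -0.85 and from -2.48 to -1.19 in the same order of populations. No library of either macrophage population overlapped a microglial one on these lists.

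Normal microglia had the lowest scores of the 4 populations for most of the machinery of division. The mean over the 23 mitosis members ran from -0.33 through a median of 0.40 to 0.97 in tumour differentiated macrophages, from -0.59 through 0.08 to 0.50 in tumour undifferentiated macrophages, from -1.10 through 0.64 to 1.54 in tumour microglia and from -1.64 through -0.87 to -0.41 in normal microglia. Tumour microglia were spread widest: libraries 6 and 30 stood at 1.47 and 1.54, whereas library 22 stood at -1.10, inside the range of normal microglia. The mean over the 16 replication members ran from -0.14 through 0.22 to 0.68, from -0.52 through 0.06 to 0.47, from -0.25 through 0.55 to 0.91 and from -1.34 through -0.68 to -0.39 in the same order. Only 1 tumour library, undifferentiated macrophages 32, overlapped normal microglia on that mean.

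**Figure D1:**
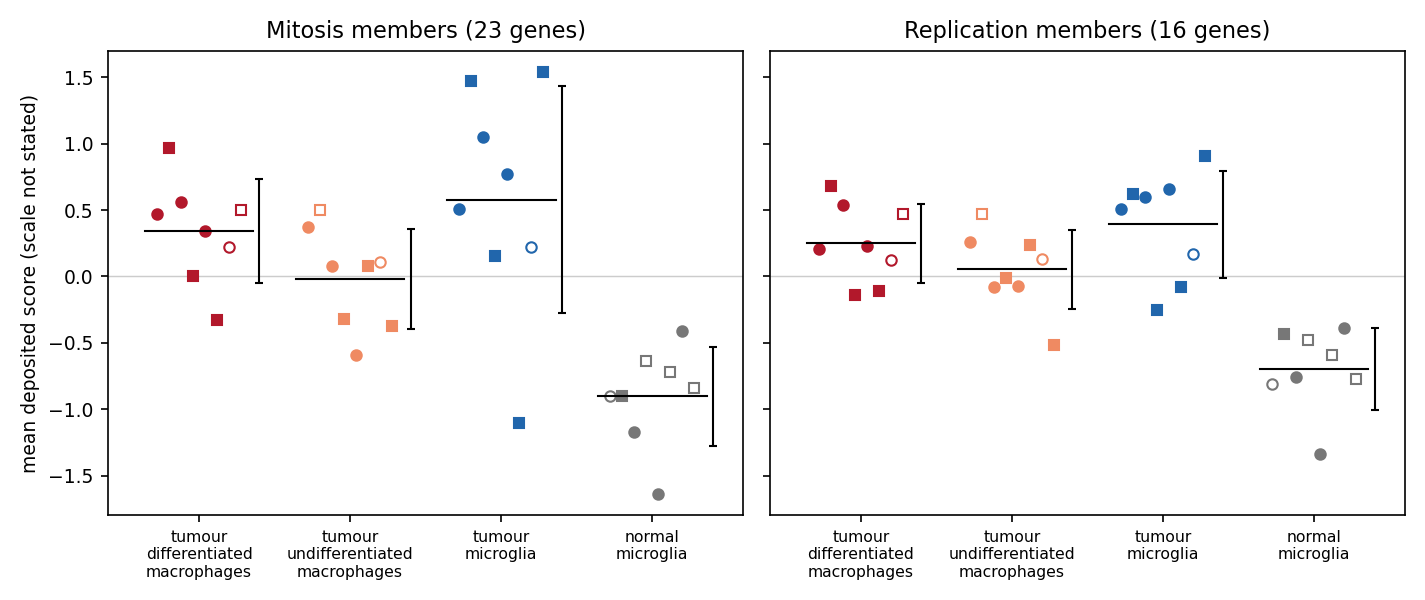
Mean deposited score of the mitosis members (left) and the replication members (right) in each of the 32 libraries, by population; circles are WT and squares Pep3 recipients, open symbols are the 9 libraries that kept under 50% of their variation, horizontal lines are population means and bars are the SD (n = 8). The mitosis mean was 0.34 ± 0.39 in tumour differentiated macrophages, -0.02 ± 0.38 in tumour undifferentiated macrophages, 0.58 ± 0.86 in tumour microglia and -0.90 ± 0.37 in normal microglia.

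Ranked by population mean, 22 of the 23 mitosis members were lowest in normal microglia, with Ccnb2, a B-type cyclin, lowest in tumour undifferentiated macrophages. The same members were highest in tumour microglia for 15 genes, in tumour differentiated macrophages for 7 genes and in tumour undifferentiated macrophages for 1 gene, the checkpoint kinase Bub1. The replication class was split more evenly. Of its 16 members, 7 were highest in tumour differentiated macrophages, 8 in tumour microglia and 1, the loading factor Cdc6, in normal microglia. The lowest population was normal microglia for 11, tumour undifferentiated macrophages for 3 and tumour differentiated macrophages for 2 replication members. These ranks are descriptions, since many neighbouring means differ by less than their spread. The share of all genes with each rank is not given, so the counts cannot show an excess among the members. Library medians also differed between populations, which shifts ranks for all genes.

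**Figure D2:**
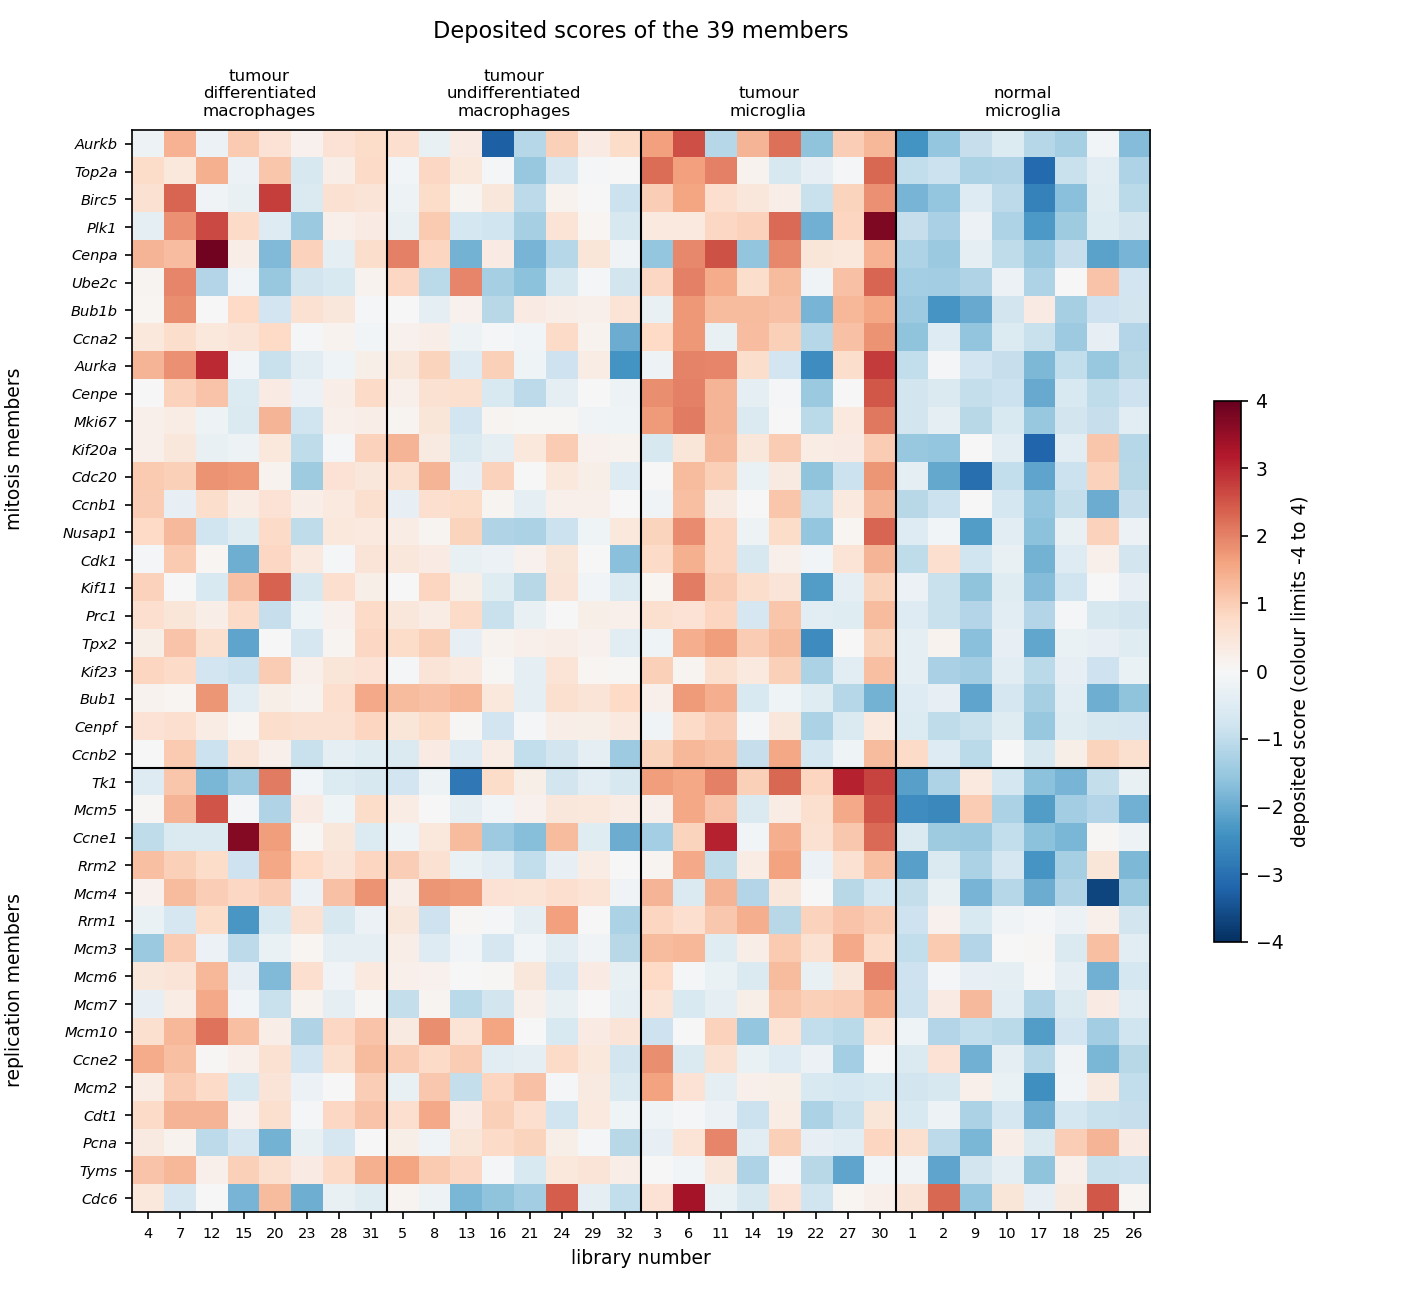
Deposited scores of the 39 members (rows) in the 32 libraries (columns, by library number), with mitosis members above the black line and replication members below it, and genes ordered within each class by their difference between tumour and normal microglia. Blue (low) fields fill most of the normal microglia block, the mitosis rows of tumour microglia are red (high) in libraries 6 and 30 and blue in library 22, and the rows for Tyms, Cdt1 and Mcm10 are red mainly in the macrophage blocks.

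Tumour microglia were compared with normal microglia to ask which division genes differ in resident cells beside a glioma. Here 15 of the 39 members rose and none fell, against 4.66% of all genes higher and 12% lower. The 4 replication members that rose were Tk1, Mcm5, Rrm2 and Mcm4, and the 11 mitosis members were Aurkb, Top2a, Birc5, Plk1, Ube2c, Bub1b, Ccna2, Cenpe, Mki67, Kif20a and Ccnb1. The median difference was 0.87 over the replication members and 1.53 over the mitosis members, beside -0.25 over all genes. With each library's median subtracted, which removes that shift, 21 members rose and none fell. The median difference was then 1.12 over replication and 1.77 over mitosis members, beside 0 over all genes. How many of all genes were called on those scores is not given, so the shares above do not apply to the 21.

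Tk1, the thymidine kinase that salvages a DNA precursor, had scores from 0.87 through a median of 1.84 to 3.09 in tumour microglia, against -2.18 through -1.10 to 0.38 in normal microglia. All 8 tumour microglia libraries lay above all 8 normal ones, which held for no other member in this comparison and for 1.77% of all genes. The difference was 3.01 ± 0.59 (SE, adjusted p = 0.002). The call was lost without library 1 (1.72), 18 (2.44) or 27 (2.29).

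Mcm5, a subunit of the helicase ring, had scores from -0.58 through 0.90 to 2.53 in tumour microglia, against -2.57 through -1.66 to 1.02 in normal microglia. The overlap came from normal microglia library 9, at 1.02, while the other 7 normal libraries lay between -2.57 and -1.18, below every tumour microglia library. Mcm5 rose by 2.63 ± 0.54 (adjusted p = 0.0025), a call lost without library 1 (2.18), 10 (2.11) or 26 (2.29). Rrm2, the regulated subunit of ribonucleotide reductase, had a median of 0.46 (range -1.01 to 1.61) in tumour microglia, against -1.29 (range -2.37 to 0.48) in normal microglia. It rose by 1.85 ± 0.47 (adjusted p = 0.011), a call lost without library 1 (1.22), 18 (2.01), 26 (1.44) or 27 (1.92).

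Of the 6 subunits of the helicase ring, Mcm4 and Mcm5 passed, and all 6 had a higher mean in tumour than in normal microglia. Differences between subunits were not tested. Mcm4 rose by 1.24 ± 0.37 (adjusted p = 0.023), with a median of -0.29 (range -1.18 to 1.36) in tumour microglia, against -1.33 (range -3.67 to -0.30) in normal microglia. That call was lost without library 1 (1.82), 10 (0.79), 18 (1.38) or 26 (1.20). Mcm2, another ring subunit, had a median of -0.09 (range -0.69 to 1.60) in tumour microglia, against -0.45 (range -2.45 to 0.35) in normal microglia, and a difference of 0.55 ± 0.49 that did not pass (adjusted p = 0.47). The other 3 subunits had differences of 0.97 ± 0.43 for Mcm3 (adjusted p = 0.12), 0.97 ± 0.46 for Mcm6 (adjusted p = 0.15) and 0.78 ± 0.45 for Mcm7 (adjusted p = 0.24). Pcna, the sliding clamp, overlapped almost completely: its median was 0.11 (range -0.46 to 1.96) in tumour microglia, against 0.30 (range -1.82 to 1.35) in normal microglia, with a difference of 0.30 ± 0.51 (adjusted p = 0.72). Cdc6 was the single member with a negative difference, -0.15 ± 0.66 (adjusted p = 0.90).

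Among the mitosis members, Aurkb and Birc5 belong to the chromosomal passenger complex, which corrects faulty spindle attachments. Aurkb had a median of 1.35 (range -1.62 to 2.59) in tumour microglia, against -1.23 (range -2.40 to -0.11) in normal microglia, and rose by 2.28 ± 0.65 (adjusted p = 0.02). Tumour microglia libraries 11 and 22, at -1.13 and -1.62, lay inside the normal range and the other 6 above it. Birc5 rose by 2.16 ± 0.53 (adjusted p = 0.0087), with a median of 0.78 (range -0.89 to 1.82) in tumour microglia, against -1.31 (range -2.69 to -0.47) in normal microglia. Aurkb lost its call without library 1 (1.55), 2 (2.25), 10 (2.90), 18 (2.33), 26 (1.87) or 27 (2.42), and Birc5 without library 1 (1.97), 2 (1.83), 10 (2.20), 18 (2.16) or 27 (2.11).

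Top2a, the topoisomerase that untangles sister chromosomes, had scores from -0.64 through 0.90 to 2.31 in tumour microglia, against -3.10 through -1.10 to -0.41 in normal microglia. Libraries 3, 6, 11 and 30 of tumour microglia stood between 1.65 and 2.31, and library 19, at -0.64, was the only one of the 8 inside the normal range. Top2a rose by 2.24 ± 0.51 (adjusted p = 0.0053), and the call was lost only without library 10 (1.60). Plk1, a kinase of mitotic entry, rose by 2.06 ± 0.69 (adjusted p = 0.042), and its call was lost without library 1 (2.67), 2 (2.13), 6 (2.12), 10 (1.22), 11 (2.12), 14 (2.03), 17 (1.78), 18 (2.01), 19 (1.87), 26 (2.49), 27 (2.16) or 30 (1.42). Its score reached 3.72 in tumour microglia library 30 and was -1.93 in library 22.

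The proliferation marker Mki67 rose by 1.57 ± 0.45 (adjusted p = 0.021). Its scores ran from -1.08 through 0.87 to 2.12 in tumour microglia, against -1.51 through -0.75 to -0.38 in normal microglia. Libraries 3, 6, 11 and 30 stood between 1.36 and 2.12, libraries 19 and 27 at 0.01 and 0.39, and libraries 14 and 22 inside the normal range. The call was lost without library 1 (2.05), 2 (1.19), 6 (1.33), 10 (1.49), 18 (1.74), 27 (1.84) or 30 (1.28). Ccnb1, the cyclin that drives mitosis, rose by 1.43 ± 0.38 (adjusted p = 0.014), with a median of 0.37 (range -0.98 to 1.35) in tumour microglia, against -0.93 (range -1.99 to 0.03) in normal microglia. Cdk1, its partner kinase, had a median of 0.66 (range -0.64 to 1.41) in tumour microglia, against -0.62 (range -1.89 to 0.67) in normal microglia, and its difference of 1.11 ± 0.47 did not pass (adjusted p = 0.10). Ccnb1 lost its call without library 1 (1.62), 2 (1.16), 10 (1.48), 18 (1.60) or 27 (1.44). The count of 15 called members was 1 without library 1, 3 without library 10, 5 without library 18, 7 without library 2 or 27 and 9 without library 26.

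Promoter sequences were set beside these values because genes of each class are known to be switched on together in the cell cycle. The RefSeq promoter table, on build GRCm38.p6, holds the 250 bases before and 50 after each gene's start. It matched 19 of the 23 mitosis members with 20 promoters and 14 of the 16 replication members with 15 promoters. On both strands, the letters CCAAT, read by the factor NF-Y, stood in 18 of the 20 mitosis promoters (90%), in 10 of the 15 replication promoters (66.7%) and in 37.4% of all 32851 promoters. The letters TTTGAA or TTCGAA, known as the cell cycle homology region of late cell cycle genes, stood in 16 mitosis promoters (80%), 2 replication promoters (13.3%) and 19.2% of all promoters. CCAAT and those letters stood together in the same 16 mitosis promoters (80%) and 2 replication promoters (13.3%), against 7.52% of all promoters. E2F letters (TTTCGCGC, TTTGGCGC, TTTCCCGC or TTTGCCGC) stood in 1 mitosis promoter (5.0%), that of Cdk1, in 6 replication promoters (40%), those of Cdc6, Cdt1, Mcm3, Mcm5, Mcm6 and Mcm7, and in 2.26% of all promoters. A match is a description of letters and no binding was measured.

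The 4 promoters printed here belong to the 2 called members of each class with the largest rise in tumour microglia among those eligible. A member was passed over if it had no promoter entry or if its first promoter held no searched motif. Tk1, Aurkb and Birc5 rose more than some printed members and were passed over. Sequences run 5′ to 3′ on the gene's strand, and capitals mark the letters of CCAAT, of the cell cycle homology region and of E2F on either strand. Top2a lies at chr11:99024140-99024439 on the minus strand, Plk1 at chr7:122159185-122159484, Mcm5 at chr8:75109259-75109558 and Rrm2 at chr12:24708004-24708303, these 3 on the plus strand.
Top2a: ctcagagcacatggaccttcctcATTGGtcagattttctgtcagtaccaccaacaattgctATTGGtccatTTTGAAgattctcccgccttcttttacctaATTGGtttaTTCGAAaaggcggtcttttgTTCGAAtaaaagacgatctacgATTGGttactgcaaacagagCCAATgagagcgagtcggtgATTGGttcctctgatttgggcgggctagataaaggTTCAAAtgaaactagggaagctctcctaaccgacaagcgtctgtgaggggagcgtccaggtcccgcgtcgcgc
Plk1: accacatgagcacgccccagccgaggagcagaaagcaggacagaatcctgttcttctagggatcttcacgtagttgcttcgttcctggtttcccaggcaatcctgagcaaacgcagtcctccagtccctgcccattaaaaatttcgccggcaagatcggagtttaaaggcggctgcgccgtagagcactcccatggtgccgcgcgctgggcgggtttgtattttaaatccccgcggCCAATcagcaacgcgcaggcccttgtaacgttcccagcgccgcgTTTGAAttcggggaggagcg
Mcm5: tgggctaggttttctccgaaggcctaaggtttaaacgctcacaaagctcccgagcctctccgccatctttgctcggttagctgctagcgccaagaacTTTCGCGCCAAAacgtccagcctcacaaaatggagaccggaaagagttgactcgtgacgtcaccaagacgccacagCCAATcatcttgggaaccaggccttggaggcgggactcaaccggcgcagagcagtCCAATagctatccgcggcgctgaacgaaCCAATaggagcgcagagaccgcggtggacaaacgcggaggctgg
Rrm2: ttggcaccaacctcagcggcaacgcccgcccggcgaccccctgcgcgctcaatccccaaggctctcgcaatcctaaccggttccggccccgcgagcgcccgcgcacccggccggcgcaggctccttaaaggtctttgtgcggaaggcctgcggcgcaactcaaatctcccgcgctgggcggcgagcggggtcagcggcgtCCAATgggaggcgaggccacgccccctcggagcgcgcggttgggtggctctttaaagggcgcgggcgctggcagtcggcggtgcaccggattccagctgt
Top2a held 6 matches to CCAAT and 4 to the cell cycle homology region, and Plk1 held 1 of each. Mcm5 held 3 matches to CCAAT and 2 overlapping E2F matches in 1 run of capitals, and Rrm2 held 1 match to CCAAT.

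Tumour differentiated macrophages were compared with normal microglia as the tumour-infiltrating cells set against resident cells of a brain without tumour. Of the 39 members, 20 rose and none fell, against 32.7% of all genes called, 24.7% higher and 8.02% lower. They were 7 replication members, Mcm4, Mcm5, Mcm10, Cdt1, Ccne2, Rrm2 and Tyms, and 13 mitosis members. The median difference was 1.22 over replication and 1.40 over mitosis members, beside 0.53 over all genes. With library medians subtracted 10 members were called higher, 6 of replication and 4 of mitosis. Their class medians were then 0.8 and 0.97, beside 0.11 over all genes. The share of all genes called on those scores is not given. Groups did not overlap for 6 members, Mcm4, Cdt1, Tyms, Ccna2, Cenpe and Cenpf, and for 8.46% of all genes. For Tyms the separation was smaller than 0.01, with 0.20 as the lowest macrophage and the highest normal score. Its values are also less certain because the table has a row for a pseudogene copy, Tyms-ps, and reads of near-identical copies can be divided between rows.

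Mcm4 had scores from -0.22 through 0.99 to 1.80 in tumour differentiated macrophages, against -3.67 through -1.33 to -0.30 in normal microglia. It rose by 2.49 ± 0.37 (adjusted p = 4.8e-05), a call kept in all 32 fits that left out 1 library, with differences from 1.96 to 2.93. Mcm5 rose by 1.96 ± 0.54 (adjusted p = 0.0093), with a median of 0.19 (range -1.21 to 2.51) against -1.66 (range -2.57 to 1.02) in normal microglia. Rrm2 rose by 2.07 ± 0.48 (adjusted p = 0.0028), with a median of 0.83 (range -0.84 to 1.55) in tumour differentiated macrophages. Mcm10, a factor that helps start the helicase, rose by 1.89 ± 0.50 (adjusted p = 0.0072), with a median of 0.98 (range -1.19 to 2.17), against -1.02 (range -2.24 to -0.17) in normal microglia. Each of these calls but that of Mcm4 depended on single libraries. Mcm5 lost its call without library 1 (1.62), 10 (1.35), 26 (1.61), 29 (1.50) or 31 (1.45). Rrm2 lost it without library 1 (1.59) or 26 (1.65), and Mcm10 without library 8 (1.35) or 10 (1.09).

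In this comparison Mcm2 had a difference of 0.95 ± 0.49 (adjusted p = 0.14), with a median of 0.42 (range -0.62 to 1.03) in tumour differentiated macrophages. Pcna had a difference of -0.62 ± 0.52 (adjusted p = 0.36), with a median of -0.49 (range -1.90 to 0.37). Neither passed, and 4 of the 16 replication members had negative differences: Pcna, Rrm1, Mcm3 and Cdc6 (-0.96 ± 0.67, adjusted p = 0.27). The members called in this class were thus the helicase subunits Mcm4 and Mcm5, the helicase-starting factor Mcm10, the loading factor Cdt1, cyclin E2 and the nucleotide enzymes Rrm2 and Tyms.

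The mitosis members with the largest differences were Cenpa, the histone that marks centromeres, Birc5, Cdc20, an activator of the anaphase-promoting complex, and Aurkb. Cenpa rose by 2.25 ± 0.81 (adjusted p = 0.037), with a median of 0.82 (range -1.77 to 3.86) in tumour differentiated macrophages, against -1.35 (range -2.13 to -0.35) in normal microglia. Its top score came from library 12 and its lowest from library 20, and its call was lost without library 1 (2.70), 2 (2.17), 4 (2.13), 7 (2.18), 8 (1.93), 10 (2.29), 12 (1.67), 17 (2.18), 23 (2.26), 25 (2.06), 26 (1.45), 29 (1.58) or 31 (1.94). Birc5 rose by 2.21 ± 0.54 (adjusted p = 0.0041), a call lost only without library 10 (2.26). Cdc20 rose by 1.88 ± 0.62 (adjusted p = 0.025) and Aurkb by 1.86 ± 0.66 (adjusted p = 0.034). Cdc20 lost its call without library 2 (1.54), 7 (1.72), 8 (1.23), 10 (1.63), 15 (1.64), 17 (1.66), 26 (2.20), 28 (2.09) or 31 (1.96). Aurkb lost it without library 1 (1.31), 2 (1.84), 7 (1.72), 8 (1.98), 10 (2.59), 17 (1.84), 18 (1.93), 20 (1.73), 26 (1.45), 28 (0.94), 29 (1.53) or 31 (1.38).

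Top2a rose by 1.83 ± 0.52 (adjusted p = 0.010), with a median of 0.57 (range -0.65 to 1.41) in tumour differentiated macrophages and 1 library, 23, inside the normal range. Ccnb1 rose by 1.50 ± 0.39 (adjusted p = 0.0061), with a median of 0.49 (range -0.32 to 1.00). Top2a lost its call without library 2 (1.51), 8 (1.40), 10 (1.09), 26 (2.08), 28 (1.89) or 31 (1.34), and Ccnb1 only without library 10 (1.55). Mki67 had a median of 0.20 (range -0.80 to 1.36) and a difference of 0.95 ± 0.46 that did not pass (adjusted p = 0.11), and Cdk1 a median of 0.24 (range -1.96 to 1.06) and a difference of 0.72 ± 0.47 (adjusted p = 0.23). The count of 20 was 3 without library 10, 9 without library 26, 10 without library 2, 8 or 31, 12 without library 29 and 13 without library 7 or 28.

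Tumour undifferentiated macrophages had the fewest called members of the tumour populations against normal microglia. In the reported fit 6 members rose, Mcm4, Mcm5, Mcm10, Cdt1, Tyms and the mitotic checkpoint kinase Bub1, and none fell. That share was below the 21.8% of all genes called higher, and 6.18% of all genes were lower. The count depended on the fit and was larger without terms for the removed directions, as given below. The median difference was 0.68 over replication and 0.86 over mitosis members, beside 0.57 over all genes. Mcm4 was the only member called with library medians subtracted (1.88, adjusted p = 0.0015).

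Mcm4 had scores from -0.14 through 0.58 to 1.78 in tumour undifferentiated macrophages, all above normal microglia, where they ran from -3.67 through -1.33 to -0.30, and 8.71% of all genes were likewise without overlap. It rose by 2.36 ± 0.39 (adjusted p = 2e-04), and this call too held in all 32 fits that left out 1 library (1.99 to 2.77). Bub1 had a median of 0.73 (range -0.36 to 1.33), against -1.0 (range -2.10 to -0.34) in normal microglia, and rose by 1.95 ± 0.52 (adjusted p = 0.0093). That call was lost without library 2 (1.91), 26 (1.27), 29 (1.74) or 31 (1.51). Mcm5 rose by 1.76 ± 0.58 (adjusted p = 0.028), Mcm10 by 1.70 ± 0.53 (adjusted p = 0.022), Tyms, the thymidylate synthase, by 1.35 ± 0.48 (adjusted p = 0.039) and Cdt1 by 1.29 ± 0.40 (adjusted p = 0.021). Mcm5 lost its call without library 1 (1.43), 2 (1.96), 10 (1.33), 17 (1.56), 21 (1.67), 26 (1.42), 29 (1.27) or 31 (1.01), and Mcm10 without library 2 (1.48), 8 (1.35), 10 (1.15), 16 (1.41), 26 (1.96) or 31 (1.54). Cdt1 lost it without library 2 (1.14), 8 (1.00), 10 (1.08), 16 (1.04), 26 (1.40), 29 (1.33) or 31 (1.13). The difference of Tyms was 0.07 without library 2 and 0.76 without library 31, and its call was lost in 10 further fits that left out 1 library, with differences between 1.09 and 1.42.

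The other listed members did not pass in undifferentiated macrophages. Mki67 had a median of 0.06 (range -0.76 to 0.49) and a difference of 0.69 ± 0.49 (adjusted p = 0.29), Top2a a median of -0.05 (range -1.53 to 0.82) and a difference of 0.87 ± 0.55 (adjusted p = 0.23). Ccnb1 had a median of 0.15 (range -0.35 to 0.72) and a difference of 1.09 ± 0.41 (adjusted p = 0.052), Cdk1 a median of 0.09 (range -1.68 to 0.47) and a difference of 0.28 ± 0.50 (adjusted p = 0.69). Rrm2 had a median of -0.14 (range -0.98 to 0.97) and a difference of 0.97 ± 0.51 (adjusted p = 0.15), Mcm2 a median of 0.15 (range -0.95 to 1.16) and 0.78 ± 0.53 (adjusted p = 0.26), and Pcna a median of 0.22 (range -1.11 to 0.89) and 0.34 ± 0.55 (adjusted p = 0.66). Differences were negative for 3 of the 16 replication members, the lowest being Cdc6 (-1.29 ± 0.71, adjusted p = 0.17). Of the 23 mitosis members 1 was negative, Ccnb2 (-0.69 ± 0.51, adjusted p = 0.31). The count of 6 was 1 without library 2, 26 or 31, 2 without library 29, 3 without library 8 or 10, and 12 without library 18.

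**Figure D3:**
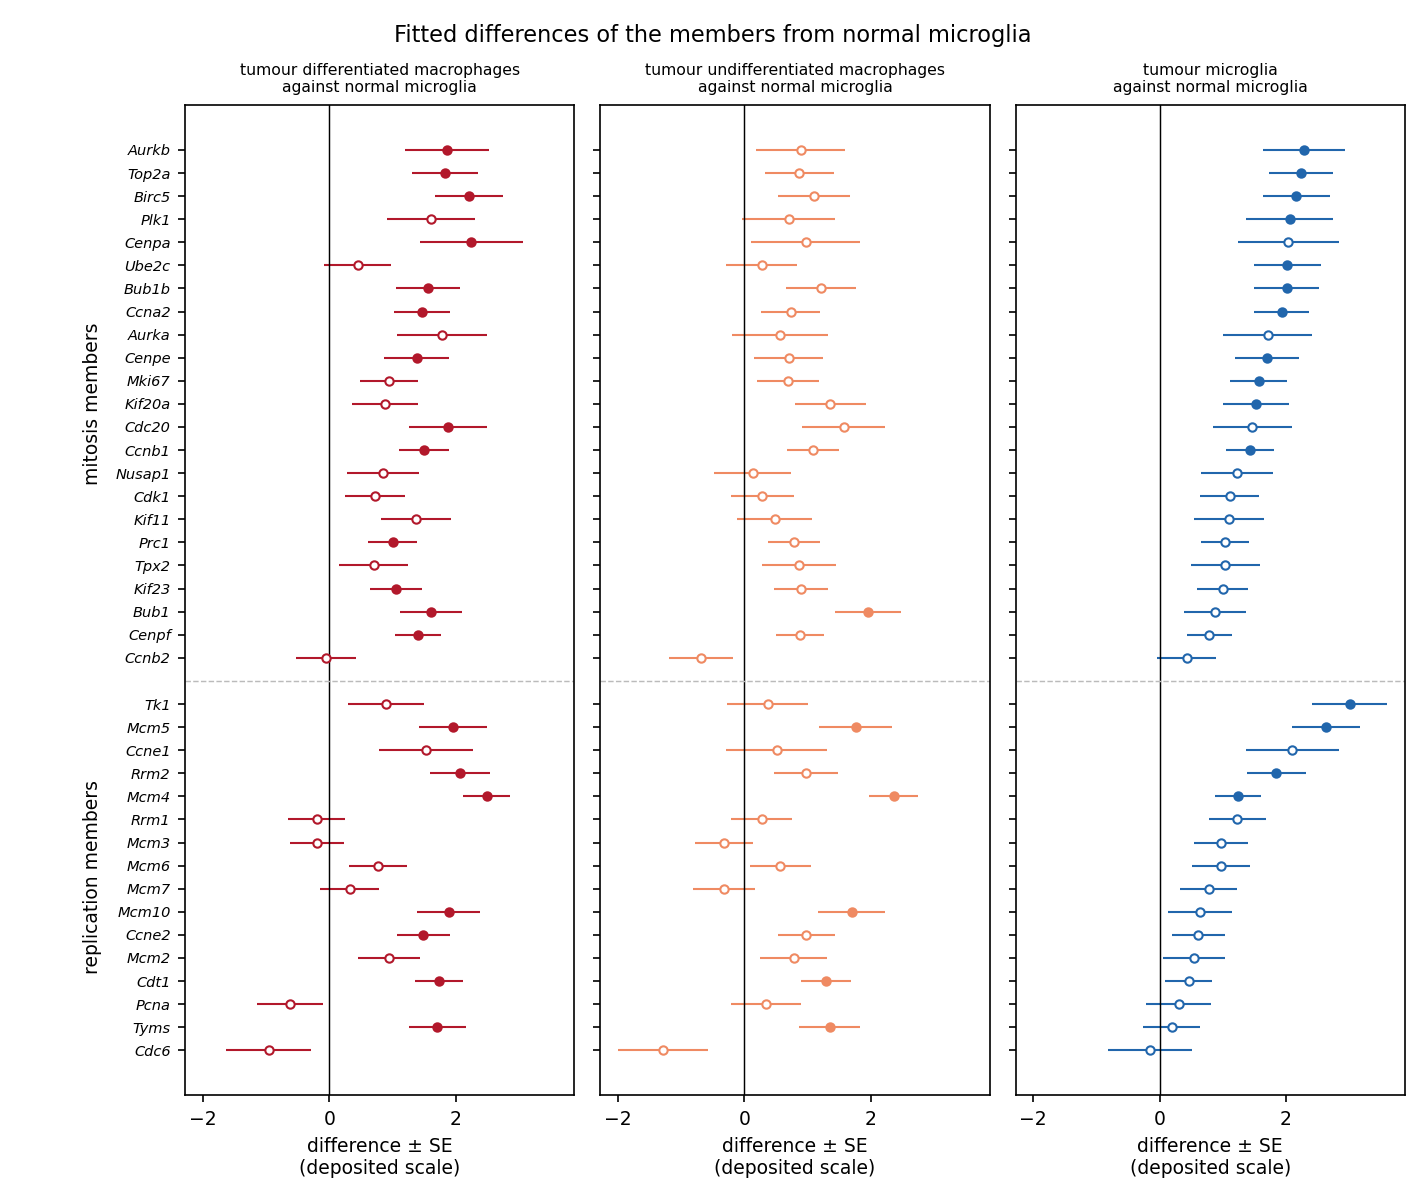
Fitted difference of each of the 39 members from normal microglia (x axis, deposited scale, bars are the SE) in tumour differentiated macrophages (left), tumour undifferentiated macrophages (middle) and tumour microglia (right); filled points have a limma adjusted p below 0.05. Filled points number 20, 6 and 15 from left to right, all lie right of 0, and Mcm4 and Mcm5 are filled in all 3 panels.

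The 3 comparisons share the same 8 normal microglia libraries, so members called in several of them are no independent evidence of one another. Side by side, 2 members were called in all 3 tumour populations, Mcm4 and Mcm5. Another 12 were called in 2 populations and 11 in 1 population. The 14 members called in none were Mcm2, Mcm3, Mcm6, Mcm7, Pcna, Cdc6, Ccne1 and Rrm1 of replication and Aurka, Ccnb2, Cdk1, Kif11, Nusap1 and Tpx2 of mitosis.

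The tumour populations were then compared with each other. Against tumour microglia, 3 members rose and 4 fell in tumour differentiated macrophages, where 43.4% of all genes were called, 37% higher and 6.35% lower, and the median over all genes was 0.65. After subtraction of library medians, none rose and 8 fell, and the share of all genes called on those scores is not given. The groups overlapped for each of the 39 members, whereas they did not for 8.4% of all genes. The median difference was -0.33 over replication and -0.34 over mitosis members as deposited, and -1.0 over both classes with library medians subtracted.

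The members that fell in tumour differentiated macrophages were Tk1, Rrm1, Mcm3 and Ube2c. Tk1 had a median of -0.54 (range -1.83 to 2.09) in tumour differentiated macrophages, against 1.84 (range 0.87 to 3.09) in tumour microglia, and fell by 2.11 on the deposited scale (difference -2.11 ± 0.61, adjusted p = 0.008). Macrophage libraries 7 and 20, at 1.10 and 2.09, overlapped tumour microglia and the other 6 lay below them. Ube2c, the ubiquitin-conjugating enzyme of the anaphase-promoting complex, had a median of -0.35 (range -1.51 to 1.95), against 1.21 (range -0.13 to 2.32) in tumour microglia, and a difference of -1.57 ± 0.55 (adjusted p = 0.023). Rrm1, the large subunit of ribonucleotide reductase, had a median of -0.43 (range -2.33 to 0.73), against 0.98 (range -1.11 to 1.46), and a difference of -1.43 ± 0.47 (adjusted p = 0.016). Mcm3 had a median of -0.30 (range -1.48 to 1.01), against 0.91 (range -0.50 to 1.51), and a difference of -1.15 ± 0.45 (adjusted p = 0.040). Tk1 lost its call without library 27 (-1.34), 28 (-2.27) or 29 (-1.76), Rrm1 without library 8 (-1.23), 27 (-1.51) or 28 (-1.09), and Ube2c without library 8 (-1.38), 23 (-1.25), 28 (-1.75), 29 (-1.59) or 30 (-1.40). Mcm3 lost it in 15 of the 32 fits that left out 1 library, with differences between -1.62 and -0.78 over all 32.

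The members that rose on the deposited scale in this comparison were all of replication, Tyms by 1.52 ± 0.46 (adjusted p = 0.011), Cdt1 by 1.28 ± 0.39 (adjusted p = 0.010) and Mcm4 by 1.25 ± 0.38 (adjusted p = 0.011). Tyms had a median of 0.86 (range 0.20 to 1.41) in tumour differentiated macrophages, against -0.10 (range -2.12 to 0.45) in tumour microglia, and macrophage libraries 12 and 23, at 0.20 and 0.33, were the only ones to overlap tumour microglia. With library medians subtracted the differences were 0.85 for Tyms (adjusted p = 0.12), 0.61 for Cdt1 (adjusted p = 0.20) and 0.58 for Mcm4 (adjusted p = 0.22), and none passed. As deposited, Tyms lost its call without library 8 (1.35), 27 (0.55) or 31 (1.14), Cdt1 without library 8 (0.69) or 27 (1.10), and Mcm4 without library 8 (1.09), 27 (0.97) or 28 (1.41). Of the other listed members, Mcm5 differed by -0.67 ± 0.56 (adjusted p = 0.35), Pcna by -0.92 ± 0.53 (0.17), Mki67 by -0.62 ± 0.47 (0.30), Top2a by -0.41 ± 0.53 (0.57), Cdk1 by -0.39 ± 0.48 (0.55), Mcm2 by 0.40 ± 0.51 (0.56), Rrm2 by 0.21 ± 0.49 (0.76) and Ccnb1 by 0.07 ± 0.40 (0.91), with limma adjusted p-values in parentheses. The count of 7 was 1 without library 8 or 27, 2 without library 28 and 4 without library 29.

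Against tumour microglia, tumour undifferentiated macrophages had 1 member higher, Mcm4, and 4 lower, Tk1, Mcm3, Ube2c and Ccna2, where 41.9% of all genes were called, 36.7% higher and 5.19% lower, and the median over all genes was 0.71. On scores with library medians subtracted no member was higher and 21 were lower, 8 of replication and 13 of mitosis. The median difference was then -1.36 over replication and -1.6 over mitosis members, beside -0.01 over all genes. The share of all genes lower on those scores is not given. Tk1 had scores from -2.87 through -0.55 to 0.72 in tumour undifferentiated macrophages, all below tumour microglia, where they ran from 0.87 through 1.84 to 3.09. Groups were likewise separate for 8.09% of all genes. Tk1 fell by 2.63 (difference -2.63 ± 0.64, adjusted p = 0.0024), and its call held in all 32 fits that left out 1 library (-3.14 to -1.93).

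Ube2c had a median of -0.68 (range -1.64 to 1.96) in tumour undifferentiated macrophages and a difference of -1.75 ± 0.57 (adjusted p = 0.017), lost only without library 21 (-1.19). Mcm3 differed by -1.30 ± 0.47 (adjusted p = 0.029) and Ccna2, the cyclin of replication and early mitosis, by -1.20 ± 0.48 (adjusted p = 0.048). Ccna2 had a median of 0.03 (range -1.98 to 0.77) in tumour undifferentiated macrophages, against 1.06 (range -1.15 to 1.79) in tumour microglia. Mcm4 rose by 1.11 ± 0.40 (adjusted p = 0.028) as deposited and had 0.39 (adjusted p = 0.45) with library medians subtracted. Mcm4 lost its call without library 1 (0.96), 8 (1.00), 13 (0.93), 14 (1.03), 16 (1.05), 24 (1.06), 27 (0.86) or 31 (1.02). Over the 32 fits that left out 1 library, Mcm3 lost its call in 11 (range of differences -1.59 to -0.96) and Ccna2 in 21 (range -1.46 to -0.87). Of the other listed members, Top2a differed by -1.37 ± 0.56 (adjusted p = 0.051), Mki67 by -0.88 ± 0.49 (0.16), Mcm5 by -0.88 ± 0.58 (0.24), Rrm2 by -0.88 ± 0.51 (0.17), Cdk1 by -0.83 ± 0.51 (0.20), Ccnb1 by -0.34 ± 0.42 (0.54), Mcm2 by 0.23 ± 0.53 (0.76) and Pcna by 0.03 ± 0.56 (0.97), with limma adjusted p-values in parentheses. The count of 5 was 3 without library 13, 29 or 32, 8 without library 8 or 11, and 10 without library 22.

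**Figure D4:**
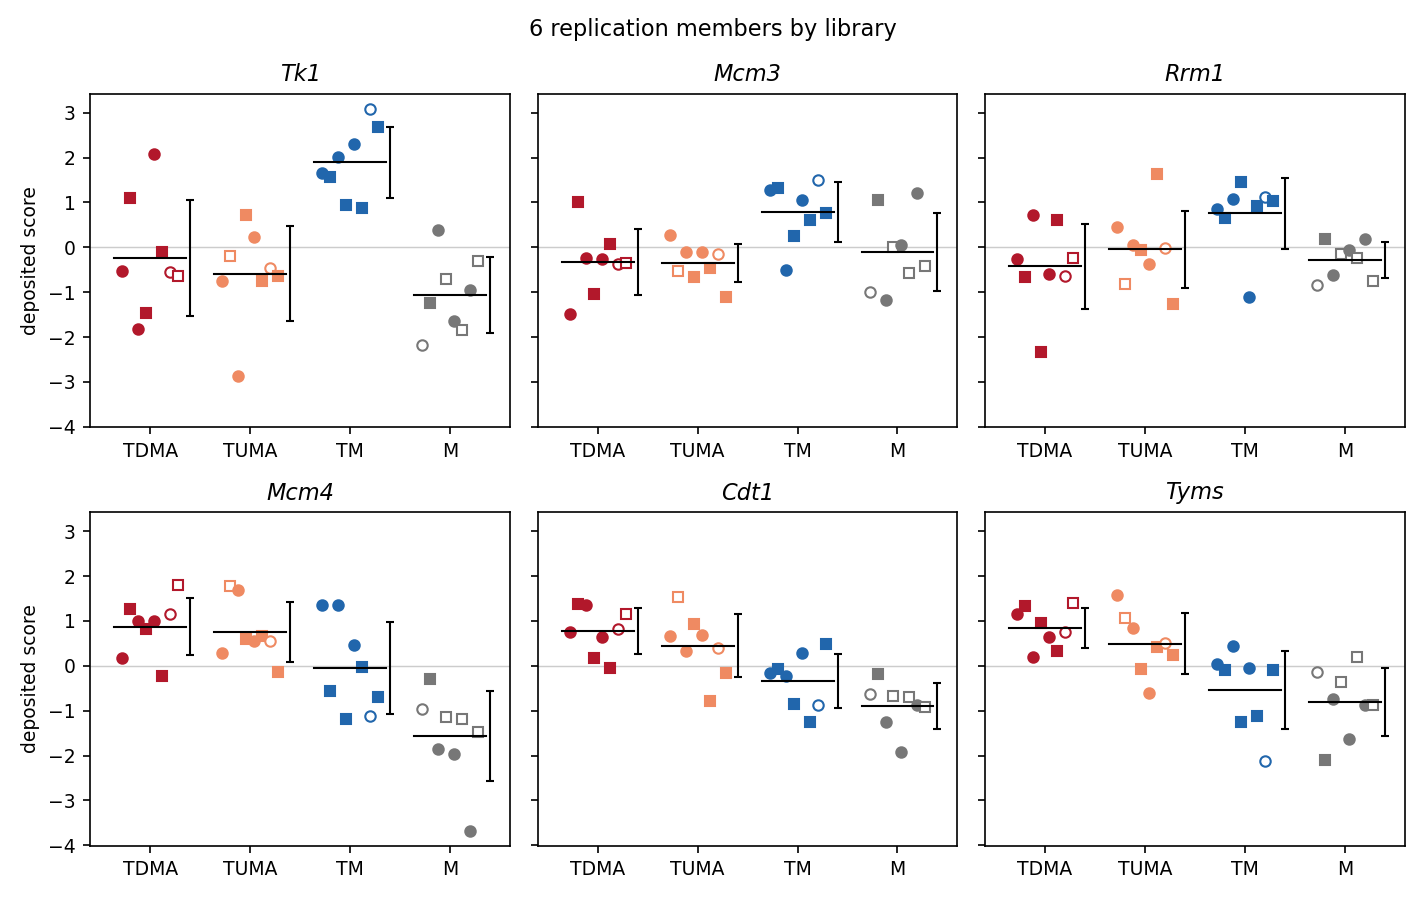
Deposited scores of 6 replication members in each library of tumour differentiated macrophages (TDMA), tumour undifferentiated macrophages (TUMA), tumour microglia (TM) and normal microglia (M); circles are WT and squares Pep3 recipients, open symbols are libraries that kept under 50% of their variation, lines are means and bars the SD (n = 8). Tk1, Mcm3 and Rrm1 (upper row) had their highest mean in tumour microglia, whereas Mcm4, Cdt1 and Tyms (lower row) had it in tumour differentiated macrophages.

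Between tumour differentiated and tumour undifferentiated macrophages no member was called by limma, and none had an unadjusted p below 0.05, where 0.0114% of all genes were called. The groups overlapped for every member, and did not for 0.00569% of all genes. The median difference was 0.27 over replication and 0.52 over mitosis members, beside -0.05 over all genes. The difference was positive for 34 of the 39 members, without the share of all genes beside that count. For Rrm2 it was 1.10 ± 0.56, for Top2a 0.96 ± 0.61, for Pcna -0.96 ± 0.61, for Cdk1 0.44 ± 0.56, for Ccnb1 0.41 ± 0.46, for Mki67 0.25 ± 0.54, for Mcm5 0.21 ± 0.64 and for Mcm2 0.17 ± 0.58, each with a limma adjusted p of 1. The removed directions left 67.6% of this contrast, and differences of about 1 on the deposited scale could not be told from the spread.

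Within populations, mitosis members had a higher median correlation with each other than replication members. Over the residuals of the fit, which has 15 degrees of freedom, the median correlation was 0.41 over the 253 pairs of mitosis members, 0.12 over the 120 pairs of replication members and 0.20 over the 368 mixed pairs, beside 0.03 over all pairs of genes. These pairs share the same libraries and the same removed directions, and the values are a description.

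The recipient strains were compared only as a difference of differences. For 1 of the 39 members, Mcm4, the fitted difference between tumour and normal microglia depended on the recipient (WT minus Pep3 5.81 ± 1.16, limma adjusted p = 0.012). In that test 884 genes, 5.03% of all genes, were called, so the members showed no excess. Mcm4 averaged 0.51 ± 1.17 in tumour microglia and -2.11 ± 1.13 in normal microglia of WT recipients, and -0.62 ± 0.48 in tumour microglia and -1.02 ± 0.51 in normal microglia of Pep3 recipients (SD, n = 4 each). From these means, without terms for the removed directions, the difference was 2.63 in WT and 0.41 in Pep3 recipients, and WT minus Pep3 was 2.22, well under the fitted 5.81. Within each recipient, tumour and normal microglia also came from different experiments. Normal microglia libraries 10, 18 and 26 of Pep3 recipients kept only 8.6%, 23.9% and 22.8% of their variation. Of the WT recipients, normal library 1 kept 33.1% and tumour microglia library 27 kept 39%. The SDs above therefore rest partly on scores that are not free of the other libraries.

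Other genes of the cell cycle were counted from 3 further lists. Their counts with library medians subtracted are given without the share of all genes called on those scores. Of 35 measured genes of cell cycle control, 9 rose and none fell in tumour microglia against normal microglia, where 4.66% of all genes were higher, led by Foxm1, the forkhead factor of mitotic genes (2.83 ± 0.38, adjusted p = 1e-04). Foxm1 had scores from -0.24 through 1.23 to 2.37 in tumour microglia, all above normal microglia, where they ran from -2.57 through -1.46 to -1.21. Its call held in all 32 fits that left out 1 library (2.31 to 3.44). Foxm1 also rose in tumour differentiated macrophages (1.99 ± 0.39, adjusted p = 0.00071) and in tumour undifferentiated macrophages (1.94 ± 0.41, adjusted p = 0.0019; 1.16 and not called without library 2).

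Cdkn1a, which encodes the inhibitor p21 that holds cells before replication, rose by 3.04 ± 0.56 in tumour differentiated macrophages (adjusted p = 0.00042), by 2.85 ± 0.59 in tumour undifferentiated macrophages (adjusted p = 0.0016) and by 2.63 ± 0.55 in tumour microglia (adjusted p = 0.003), each against normal microglia. The call was lost without library 10 in tumour differentiated macrophages (1.50) and in tumour microglia (1.3), where it was also lost without library 18 (2.03). Myc, a factor that drives growth, rose by 2.23 ± 0.38 in tumour microglia against normal microglia (adjusted p = 0.00063; 1.87 and not called without library 1). It fell in tumour differentiated macrophages (-1.49 ± 0.39, adjusted p = 0.0037) and in tumour undifferentiated macrophages (-1.88 ± 0.41, adjusted p = 0.00098) against tumour microglia, where the first of these calls was lost without library 8 (-1.13), 27 (-1.17) or 28 (-1.33). In the same 2 comparisons E2f7, a repressing E2F factor, rose by 2.27 ± 0.45 (adjusted p = 0.00039) and by 1.91 ± 0.47 (adjusted p = 0.0025), a call lost in tumour undifferentiated macrophages without library 31 (1.40). In tumour differentiated macrophages 13 control genes rose and 2 fell, and in tumour undifferentiated macrophages 9 rose and 2 fell against normal microglia, where 24.7% and 21.8% of all genes were higher. The counts became 3 and 5, and 4 and 4, with library medians subtracted. The number of control genes called against normal microglia was as low as 3 of the 15 in tumour differentiated macrophages without library 26, 4 of the 11 in tumour undifferentiated macrophages without library 31 and 2 of the 9 in tumour microglia without library 10.

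Of 37 further replication genes, 11 rose and 1 fell in tumour differentiated macrophages, 7 rose and 1 fell in tumour undifferentiated macrophages and 5 rose and none fell in tumour microglia, each against normal microglia. In the same order 24.7%, 21.8% and 4.66% of all genes were higher, and the list's median difference was 0.58, 0.68 and 0.48, beside 0.53, 0.57 and -0.25 over all genes. These counts with library medians subtracted were 2 and 3, 1 and 2, and 7 and 0. Tipin, a protein of the replication fork, rose by 2.26 ± 0.45 in tumour microglia (adjusted p = 0.0022), and Lig1, the ligase that joins newly made strands, fell in tumour undifferentiated macrophages against tumour microglia (-1.57 ± 0.40, adjusted p = 0.0037). Of 46 further mitosis genes, 18, 7 and 8 rose in the same 3 comparisons and none fell, and 6, 1 and 13 rose with library medians subtracted. Cks1b, a small partner of cyclin-dependent kinases, rose by 2.81 ± 0.55 in tumour differentiated macrophages (adjusted p = 0.00071), by 1.96 ± 0.58 in tumour undifferentiated macrophages (adjusted p = 0.017) and by 3.25 ± 0.54 in tumour microglia (adjusted p = 0.00059). Tipin lost its call without library 1 (1.76), and Cks1b lost it in tumour microglia without the same library (2.82) and in tumour undifferentiated macrophages in 5 of the 32 fits that left out 1 library. Without 1 library, the replication list had as few as 2 genes called in tumour differentiated macrophages (library 28), 1 in tumour undifferentiated macrophages (library 2 or 31) and 0 in tumour microglia (library 1), and the mitosis list 6 (library 8, 10 or 26), 0 (library 2) and 3 (library 1 or 10).

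Against tumour microglia, 6 of the 46 further mitosis genes rose in tumour differentiated macrophages and 5 in tumour undifferentiated macrophages, and none fell, where 37% and 36.7% of all genes were higher. The list's median difference was 0.25 and -0.09, beside 0.65 and 0.71 over all genes. After library medians were subtracted 2 rose and 4 fell, and 1 rose and 9 fell. Nek2, a centrosomal kinase, rose by 1.61 ± 0.35 in tumour differentiated macrophages (adjusted p = 0.0009), a call lost without library 28 (0.94). Kif14, a kinesin of cell cleavage, rose by 1.68 ± 0.50 (adjusted p = 0.0092) in tumour differentiated macrophages and by 1.64 ± 0.52 (adjusted p = 0.015) in tumour undifferentiated macrophages, calls lost without library 27 (0.86 and 0.89), 8 (0.93 and 1.10) or 31 (1.32 and 1.10).

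Markers of other cells moved with some of these comparisons. The mean score over 7 glioma and neural progenitor genes, among them Nes, Pdgfra and Sox9, ranged from 0.31 to 1.18 in tumour differentiated macrophages, from 0.30 to 1.14 in tumour undifferentiated macrophages, from -1.75 to -0.32 in tumour microglia and from -1.18 to 0.20 in normal microglia. Against normal microglia 3 of the 7 rose in tumour differentiated and 2 in tumour undifferentiated macrophages, whereas in tumour microglia 2 fell and none rose. Of all genes, 24.7% and 21.8% were higher in the macrophages and 12% lower in tumour microglia. With library medians subtracted none of the 7 was called in either macrophage population against normal microglia, and 2 fell in tumour microglia. Against tumour microglia, 5 of the 7 rose in each macrophage population, where 37% and 36.7% of all genes were higher. In each, 3 of the 7 still rose there with library medians subtracted. The mean over 3 T and NK cell genes, Lck, Cd8a and Klrb1c, ranged from 0.07 to 1.75, from -0.06 to 1.57, from -2.48 to 0.21 and from -1.66 to 0.24 in the same order of populations. Of these 3 genes, 2 rose in tumour differentiated and 1 in tumour undifferentiated macrophages, and 1 fell in tumour microglia, against normal microglia. With library medians subtracted these counts were 1, 0 and 1. Against tumour microglia, 3 of the 3 rose in tumour differentiated and 2 in tumour undifferentiated macrophages, and library medians subtracted left both counts as they were. Lists of further cell types were short. Of 4 dendritic cell genes, 3 rose in tumour differentiated macrophages, 3 in tumour undifferentiated macrophages and 1 in tumour microglia against normal microglia, and of 5 endothelial genes 2, 3 and none rose while 1 fell in tumour microglia. Of 3 B cell genes, 2 rose and 1 fell in each macrophage population and none was called in tumour microglia, and the single neutrophil gene measured, Cxcr2, rose in both macrophage populations only. With library medians subtracted, 3, 2 and 1 dendritic cell genes and 2, 1 and 0 endothelial genes rose, and none fell. Of the B cell genes 1 rose and 1 fell in tumour differentiated macrophages, and 2 rose and 1 fell in tumour undifferentiated macrophages. Cxcr2 was then called in tumour undifferentiated macrophages only. The share of all genes called on those scores is not given. The part of these cells in the results was not tested in any comparison.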

How the data were processed

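Libraries of sorted brain cells were made with the SMART-Seq v4 chemistry, per the labels' protocols. The submitters' processing notes name STAR 2.5.0a, RSEM 1.3.0, FastQC and genome build mm9. The authors deposited 1 table of 17586 genes in 32 libraries, whose values are scores: signed, centred on 0 for every gene, and of unstated scale and log base. No source used here says how 11 sample directions came to hold no variation.

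Libraries were grouped by the cell type and recipient strain of their labels. Differences were fitted in R 4.3.3 by limma 3.58.1 to every gene and library, with a mean for each population and recipient and a term for each removed direction, 15 residual degrees of freedom, robust empirical Bayes variances, two-sided tests and Benjamini-Hochberg adjustment over all 17586 genes, and were averaged over recipients. The fit was run on simulated data with independent normal noise and the same removed directions. That setting matches the model, so it cannot test dependence between libraries, effects of experiments or the unknown processing. The share of its variation that a library kept is the squared length of its axis after removal. The members, lists and tests were chosen with earlier results of these data known. Named genes were 8 core members in every comparison, the 4 called members of each class with the largest difference, members against the rest of their class and, from each other list, genes among the 5 largest called differences. Alternatives were library medians subtracted, no terms for removed directions, ordinary empirical Bayes, only the libraries compared, each recipient alone, each library left out and, chosen after seeing the data, no terms together with leaving out the 9 libraries under 50%, and a replicate block of neighbouring library numbers. Precision is set by the number of libraries, since the scores carry no depth. Promoter letters came from RefSeq on GRCm38.p6.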

Additional observations from a re-analysis of the deposited data

Results flagged for a closer look

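In 14 of the 156 sets of 8 scores, 1 set for each member and population, the highest or lowest library stood far from the rest, its gap to the nearest library, as a share of the whole range, being above Dixon's critical value for 8 values. This is 8.97% of the sets, where chance gives about 5%.

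Tumour differentiated macrophages library 15 was the lowest of its population by such a gap for Rrm1 (-2.33), Rrm2 (-0.84) and Cdk1 (-1.96). In tumour undifferentiated macrophages, library 32 was lowest for Ccna2 (-1.98) and Cdk1 (-1.68), library 13 lowest for Tk1 (-2.87) and library 24 highest for Cdc6 (2.42). In tumour microglia, library 6 was highest for Cdc6 (3.33), library 19 lowest for Rrm1 (-1.11) and library 22 lowest for Tpx2 (-2.52). In normal microglia, library 17 was lowest for Top2a (-3.10) and Cenpe (-2.02), library 25 lowest for Mcm6 (-1.91) and library 9 highest for Mcm5 (1.02). Library 9 is the 1 that kept Mcm5 from separating tumour from normal microglia.

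The difference of Mcm4 between tumour and normal microglia was 5.81 ± 1.16 larger in WT than in Pep3 recipients by a limma test of that difference itself (adjusted p = 0.012). In the means of the deposited scores, without terms for the removed directions, tumour microglia of WT recipients stood at 0.51 against -2.11 in normal microglia, and those of Pep3 recipients at -0.62 against -1.02, a difference between recipients of 2.22. In that test 5.03% of all genes were called, and 1 of the 39 members is no larger share.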

How the results depend on the processing

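Ordinary empirical Bayes left all 6 counts as they were. The shares of all genes called, or at an unadjusted p below 0.05, are not given for the alternatives below. Counts of members under them therefore have no background beside them. With library medians subtracted, 10 members were called in tumour differentiated macrophages against normal microglia, 1 in tumour undifferentiated macrophages against normal microglia and 21 in tumour undifferentiated macrophages against tumour microglia. Without terms for the removed directions the counts in tumour undifferentiated macrophages were 17 against normal microglia and 9 against tumour microglia. Leaving out 1 library gave 3 to 22 called members in tumour differentiated macrophages, 1 to 12 in tumour undifferentiated macrophages and 1 to 19 in tumour microglia against normal microglia, and 1 to 8 and 3 to 10 in the 2 macrophage populations against tumour microglia. Without the 9 libraries under 50% the counts were 0 in these 5 comparisons (4 to 17 at an unadjusted p below 0.05), and without the terms as well they were 9, 3 and 0 against normal microglia and 2 and 3 against tumour microglia, in the same order. In the libraries compared alone, with 3 residual degrees of freedom, 8 members were called in tumour against normal microglia and 0 in the other 4, where 7 to 10 had an unadjusted p below 0.05. In WT recipients alone and in Pep3 recipients alone, also with 3 residual degrees of freedom, limma called 0 members in each comparison, with 3 to 9 members at an unadjusted p below 0.05 in WT and 2 to 12 in Pep3 recipients. Tumour differentiated against undifferentiated macrophages gave 0 called members under every alternative run, with 0 to 3 at an unadjusted p below 0.05.

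Some called members changed sign in fits with terms for the removed directions, and the cause was not tested. In all 20 cases the means of the deposited scores in the libraries used kept the direction of the reported difference, for example 0.30 in tumour differentiated macrophages against -1.21 in normal microglia for Mcm5 in WT recipients, and -0.62 in tumour microglia against -1.02 in normal microglia for Mcm4 in Pep3 recipients. The means kept it for all 53 called differences in each of these settings. Since the calls were made from the same scores, this could hardly come out otherwise and is no separate support. In WT recipients alone the members that changed sign were, against normal microglia, Mcm5 (-3.07) and Aurkb (-0.15) in tumour differentiated macrophages, Mcm5 (-3.53) in tumour undifferentiated macrophages and Mcm5 (-1.18) and Plk1 (-0.31) in tumour microglia. Against tumour microglia they were Mcm4 (-0.52) and Ube2c (0.11) in tumour differentiated macrophages and Mcm3 (0.53), Mcm4 (-0.87) and Ube2c (1.67) in tumour undifferentiated macrophages. In Pep3 recipients alone they were Ccne2 (-0.17), Aurkb (-0.31) and Bub1 (-1.15) in tumour differentiated macrophages, Bub1 (-0.02) in tumour undifferentiated macrophages and Mcm4 (-2.27) in tumour microglia against normal microglia, and Mcm3 (0.11) and Tk1 (0.49) in tumour differentiated macrophages against tumour microglia. In the libraries compared alone, Mcm5 (-0.52) and Cenpa (-0.58) changed sign in tumour differentiated macrophages against normal microglia, and without the 9 libraries Aurkb did (-0.98).

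The labels number the libraries 1 to 32, share no number between populations and name no animal, so no pairing is given. Each run of 8 numbers holds 1 library of every population and recipient. Over 8 pairs of tumour differentiated macrophages and tumour microglia from the same run and recipient, deviations of the mitosis mean had r = 0.91. Those of the replication mean had r = 0.86 over the same pairs. A different measure, r across all genes within each pair, lay between -0.29 and 0.07. It cannot be set against the values over pairs. With tumour undifferentiated macrophages and tumour microglia the values were -0.02, -0.38 and -0.12 to 0.13. Between tumour differentiated and undifferentiated macrophages they were 0.36, -0.08 and -0.65 to 0.31. Both macrophage populations shared an experiment within each recipient, whereas tumour microglia came from a different experiment. As an alternative chosen after seeing the data, a replicate block of these neighbouring libraries, with 9 residual degrees of freedom, called 17, 9 and 17 members against normal microglia, and 8 and 5 against tumour microglia, in the same order of populations. In tumour undifferentiated macrophages against tumour microglia the 5 were 4 higher and 1 lower, 2 of them shared with the reported calls, and Mcm3 (-0.98), Ube2c (-1.25) and Ccna2 (-1.14) were not called. The share of all genes called with that block is not given. A filter on low values and a pseudocount were not run, since signed scores have no level and no logarithm. Depth behind any score is unknown.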
